A study of Mus musculus with 6 samples.

Results

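The genes described here are the Wnt ligands, the Frizzled receptors, the secreted proteins that inhibit or enhance Wnt signalling, and a few nuclear and target genes of the pathway, as measured by RNA sequencing in mouse embryonic fibroblasts (MEFs). Members were chosen by name. They were every gene of the deposited table whose symbol is Wnt, Fzd, Sfrp, Dkk or Rspo followed by a number and at most 1 lower-case letter, together with Axin2, Lef1, Tcf7, Wif1 and Notum. This gave 43 of the 26231 genes in the table, namely 17 Wnt ligands, 10 Frizzled receptors, 5 Frizzled-related inhibitors (4 Sfrp genes and Wif1), 3 Dickkopf genes, 4 R-spondins, the deacylase Notum, and the group of Lef1, Tcf7 and Axin2.

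Wnt proteins are secreted, lipid-modified signals that bind Frizzled receptors together with co-receptors such as Lrp5 and Lrp6, or, outside the beta-catenin branch, Ror2. In the beta-catenin branch, binding stops the destruction of beta-catenin, which then acts with TCF/LEF factors such as Tcf7 and Lef1 to switch on genes that include Axin2. Sfrp proteins and Wif1 bind the ligands, and the Dickkopf proteins Dkk1 and Dkk2 bind the Lrp co-receptors. Notum removes the lipid from the ligands, and R-spondins raise receptor levels at the cell surface. Fibroblasts and other mesenchymal cells are a well-known source of Wnt5a and of secreted Wnt regulators.

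The cells of both lines were FVB fibroblasts from embryos of approximately 14 days by the labels (the study's methods give an earlier day), carried loxP-flanked Nf2 alleles, had been immortalized by a lentivirus for the SV40 large T antigen, and were kept without serum for 24 h before RNA was taken. The line labelled MEF WT (control), which the study also calls MEF Nf2 fl/fl, received a GFP lentivirus driven by the CMV promoter. The line labelled MEF Nf2 KO, also called MEF Nf2-/-, received a lentivirus with Cre recombinase and GFP under the same promoter. Each label had 3 libraries from a single transduced line, so a difference between lines and an effect of Nf2 loss, of Cre or of separate culture cannot be told apart. Nothing in the labels says that the 3 libraries came from separate cultures, so p-values measure only the spread between these samples.

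Values are RPKM, reads per kilobase of exon and per fixed number of reads in the library, a scale on which levels of different genes can be compared. The depth inferred from the values was 13429287 to 72910883 reads per library, with replicate 3 of each line the deepest. Nf2 itself, which encodes Merlin, was at 13.1 to 14.3 RPKM in MEF WT and at 12.9 to 15.4 RPKM in the MEF Nf2 KO-labelled libraries. Its difference on the log2(RPKM + 1) scale was 0.03 (standard error 0.10, adjusted p = 0.987 from limma), and the table has no values for single exons. The label of the knockout line is therefore not borne out by Nf2 RNA, and every direction below follows the labels. The libraries did express fibroblast genes: Col1a1 was at 265 to 712 RPKM, and the 10 fibroblast markers summed to 1989 to 2782 RPKM in MEF WT and 1386 to 1946 RPKM in the MEF Nf2 KO-labelled libraries. Of these 10, 6 lay lower in every MEF Nf2 KO-labelled library, where 15.1% of all genes tested did not overlap in either direction. Dcn, Pdgfra and S100a4 passed the threshold, against 1.06% of all genes tested. With the replicate block introduced below, 5 of the 9 fibroblast markers tested passed, all lower, against 7.53% of all genes tested. Thy1 and Col3a1 were the added ones (limma adjusted p = 0.178 and 0.890 without the block, 0.00716 and 0.0274 with it). Among 4 neural markers Map2 rose from 3.55 ± 0.977 to 9.71 ± 1.45 RPKM (SD, n = 3 each; adjusted p = 0.0399 from limma), while Tubb3 (1.68 and 0.956 RPKM) and Nes (87.7 and 73.7 RPKM in the mean) had lower values without passing in either fit, and Sox10 was at most at 0.0173 RPKM. That list, nearly all of it Nes, summed to 87.5 to 102 and 60.9 to 101 RPKM. Of the 7 macrophage markers 6 were under 1 RPKM in every library, Ptprc and Adgre1 being at or near 0, and the list summed to 7.04 to 8.59 and 5.91 to 7.47 RPKM, nearly all of it Cd68. Markers of epithelium summed to at most 0.960 RPKM, those of endothelium to 1.46 to 4.45 RPKM, nearly all Kdr, and those of skeletal muscle to 0.756 to 6.61 RPKM, with Acta1 highest in replicate 2 of each line. The part of these marker differences in the results below was not tested, and in bulk RNA fewer cells of a type and less RNA per cell cannot be told apart.

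Testing took in the 11067 genes that reached 1 RPKM in 3 or more libraries, among them 14 of the 43 members. These were Wnt5a, Wnt9a, Wnt10b, Fzd1, Fzd2, Fzd5, Fzd6, Fzd7, Fzd8, Sfrp1, Dkk2, Rspo2, Rspo3 and Tcf7. Tcf7 reached 1 RPKM in the MEF WT libraries only, Dkk2 in these and 1 of the other line, and Rspo3 in all 3 MEF Nf2 KO-labelled libraries and 1 of MEF WT. Wnt10b reached it in every MEF WT library but not in MEF Nf2 KO-labelled replicate 2 (0.412 RPKM). Each of these genes thus met the filter only with libraries of the line in which it was high, and a count over the 14 does not stand for the 43. Differences are given as log2(RPKM + 1) in the MEF Nf2 KO-labelled libraries minus MEF WT, a scale that understates the change of low genes. Same-numbered replicates of the 2 lines deviated together, most of all replicate 2, so each difference was also tested with the replicate number as a block, which leaves the difference as it is and removes the shared part from the error. Between the lines 1 of the 14 members, Dkk2, passed an adjusted p of 0.05, against 1.06% of all genes tested (0.479% higher, 0.578% lower). With the replicate block 7 of the 14 passed, 3 higher and 4 lower, against 7.53% of all genes (2.99% higher, 4.54% lower). These 7 include Tcf7, Dkk2, Rspo3 and Wnt10b, so the counts are a description, and with no filter 0 of the 43 passed with the block (12 at an unadjusted p under 0.05, limma). Wnt5a, Fzd8 and Rspo3 were the 3 that rose with the block, and Dkk2, Wnt10b, Tcf7 and Fzd5 the 4 that fell. Over the 14 members the median difference was 0.28 and the median absolute difference 0.64, where all 11067 genes had medians of -0.0078 and 0.105. The medians of the 14 include the genes that met the filter through their higher line, so they too are a description.

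**Figure D1:**
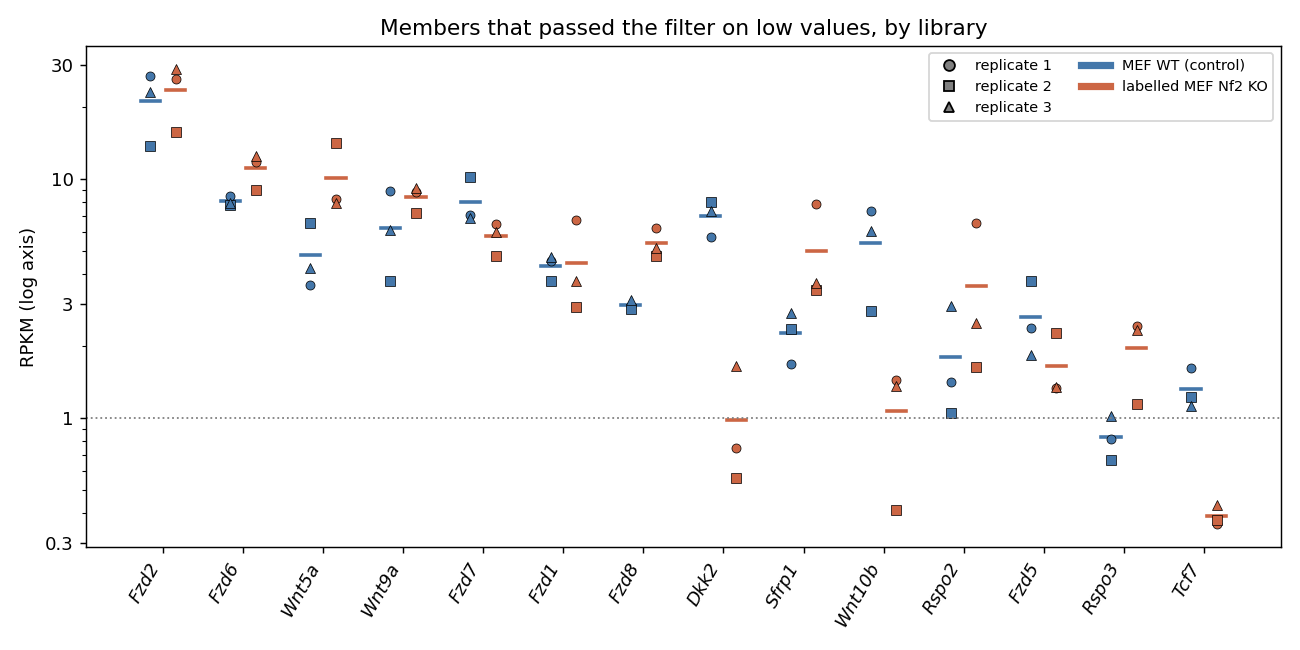
RPKM of the 14 tested members (log axis) in each library, with circles, squares and triangles for replicates 1, 2 and 3, blue for MEF WT (control), orange for the MEF Nf2 KO-labelled libraries, and bars for the line means. Genes are ordered by their mean over all libraries, the dotted line marks 1 RPKM, and the lines stand apart in Dkk2, Wnt10b, Tcf7, Fzd8 and Wnt5a, among others, with replicate 2 often set off from the other two.

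Dkk2 showed the largest difference among the tested members. It encodes a secreted Dickkopf protein that binds Lrp5 and Lrp6 and, depending on the partner proteins, can block or weakly activate the receptor. The gene lies on chromosome 3 of GRCm38, from 132085292 to 132180304 on the plus strand in GENCODE vM21. Its upstream sequence is shown because Dkk2 is the only member that passed the test in both fits, and that of Wnt10b because its difference was the next largest. Both run 5′ to 3′ for the 250 bases before the RefSeq start of the gene, with any match to the motifs below in capitals:
Dkk2, GRCm38.p6 chr3:132085042-132085291, plus strand: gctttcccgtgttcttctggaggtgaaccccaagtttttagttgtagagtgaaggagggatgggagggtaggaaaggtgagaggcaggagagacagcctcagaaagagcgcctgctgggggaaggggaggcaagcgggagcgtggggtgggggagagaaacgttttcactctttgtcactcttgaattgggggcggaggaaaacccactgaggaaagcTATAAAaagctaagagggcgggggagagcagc
Wnt10b, GRCm38.p6 chr15:98778151-98778400, minus strand: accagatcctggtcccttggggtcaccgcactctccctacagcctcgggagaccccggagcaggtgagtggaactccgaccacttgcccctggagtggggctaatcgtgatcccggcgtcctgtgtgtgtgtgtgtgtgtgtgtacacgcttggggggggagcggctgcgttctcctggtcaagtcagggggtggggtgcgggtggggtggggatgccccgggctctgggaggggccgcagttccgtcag

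Each window was searched on both strands for TATAAA (the TATA box), CTTTGA (the core of the TCF/LEF motif) and GGAATG (the core of the motif of TEAD factors, the partners of YAP). The Dkk2 window holds 1 TATAAA, which begins 32 bases before the start, and neither of the other motifs. The Wnt10b window holds none of them. Of 32851 windows of the same length upstream of RefSeq starts, 12.4% hold TATAAA, 13.8% CTTTGA and 12.6% GGAATG. The Dkk2 window is 55.6% G and C with 7 CpG dinucleotides, and that of Wnt10b is 66.8% with 14, against medians of 52.4% and 6 over all windows. RefSeq windows were at hand for 4 of the 7 members that passed with the block. Those of Fzd5, whose window overlaps annotated exons, and of Tcf7, which has more than 1 window, are not shown.

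In MEF WT replicates 1, 2 and 3 Dkk2 was at 5.71, 8.07 and 7.37 RPKM. In the MEF Nf2 KO-labelled libraries it was at 0.746, 0.560 and 1.65 RPKM, on 39.9 to 446 reads, so the lines did not overlap and the lowest MEF WT library was still above the highest of the other line. The means were 7.05 ± 1.21 and 0.985 ± 0.584 RPKM (SD, n = 3 each), and the level thus fell 7.16-fold. The log2 difference was -2.05 (standard error 0.22, limma adjusted p = 0.0217, and 0.00578 once blocked by replicate number). The call without the block was lost when MEF WT replicate 1, MEF WT replicate 3 or MEF Nf2 KO-labelled replicate 1 was left out (adjusted p = 0.0727, 0.0965 and 0.130 from limma), with the difference between -1.97 and -2.17. With the block it held without any replicate number, at adjusted p values of 0.00477 to 0.0412 from limma. With no filter on low values Dkk2 passed in neither fit (adjusted p = 0.107, and 0.167 with the block, limma). Of the other Dickkopf genes, Dkk1, an inhibitor of the Lrp co-receptors, was listed at 0 in 5 of the 6 libraries, with a single read in the remaining library. Dkk3, a divergent Dickkopf relative, was under the filter at 0.597, 0.0785 and 1.45 RPKM in MEF WT and at 0.165, 0.0617 and 0.183 RPKM in the MEF Nf2 KO-labelled libraries. Its lines overlapped through MEF WT replicate 2, and within each replicate number the MEF Nf2 KO-labelled library was the lower (exact permutation test, two-sided, p = 0.3, where 3 against 3 libraries cannot go below 0.1).

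Among the ligands, Wnt5a, Wnt9a and Wnt10b carried most of the Wnt RNA, and Wnt5a and Wnt10b differed between the lines in opposite directions. Wnt5a, the prototype ligand of the branches that do not use beta-catenin, lies on chromosome 14 from 28504750 to 28527448. It was at 3.60, 6.57 and 4.23 RPKM in MEF WT and at 8.30, 14.3 and 7.92 RPKM in the MEF Nf2 KO-labelled libraries. Replicate 2 was the highest library of each line, and the lines did not overlap. The means were 4.801 ± 1.56 and 10.2 ± 3.55 RPKM (SD, n = 3 each), and the log2 differences within replicate numbers 1, 2 and 3 were 1.01, 1.01 and 0.77. The fit gave 0.93 (standard error 0.27, adjusted p = 0.247 from limma) without the block and an adjusted p of 0.00512 with it.

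Wnt10b, a ligand of the beta-catenin branch known for holding back fat cell formation in mesenchymal cells, lies on chromosome 15 from 98770712 to 98778150 on the minus strand. It was at 7.36, 2.81 and 6.07 RPKM in MEF WT and at 1.45, 0.412 and 1.36 RPKM in the MEF Nf2 KO-labelled libraries. The lowest library of each line was replicate 2, and the lines did not overlap. The means were 5.41 ± 2.35 and 1.07 ± 0.575 RPKM (SD, n = 3 each), a ratio of 5.04, and the log2 differences within replicate numbers were -1.77, -1.43 and -1.58. The fit gave -1.60 (standard error 0.34, adjusted p = 0.122 from limma) without the block and an adjusted p of 0.00243 with it. Both Wnt5a and Wnt10b kept their call with the block when any replicate number was left out (adjusted p of at most 0.0220 and 0.0105 from limma). With no filter on low values neither passed in either fit (adjusted p = 0.159 for Wnt5a and 0.142 for Wnt10b with the block, limma).

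Wnt9a, a ligand with roles in joint and skeletal development, was at 8.90, 3.75 and 6.14 RPKM in MEF WT and at 8.83, 7.21 and 9.16 RPKM in the MEF Nf2 KO-labelled libraries. The lines overlapped, and its log2 difference of 0.43 (standard error 0.26) passed neither without nor with the block (adjusted p = 0.743 and 0.179 from limma). It passed with the block when replicate 1 was left out (adjusted p = 0.0485).

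The Wnt members together summed to 21.3, 15.2 and 18.3 RPKM in MEF WT and to 21.9, 24.6 and 20.7 RPKM in the MEF Nf2 KO-labelled libraries. Wnt10b made up 18.4% to 34.6% of that sum in MEF WT and 1.67% to 6.60% in the other line. Wnt5a made up 16.9% to 43.1% and 37.8% to 57.9%, with its share in MEF WT replicate 2 above that in 2 of the MEF Nf2 KO-labelled libraries. These shares are a description of RPKM sums and were not tested.

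**Figure D2:**
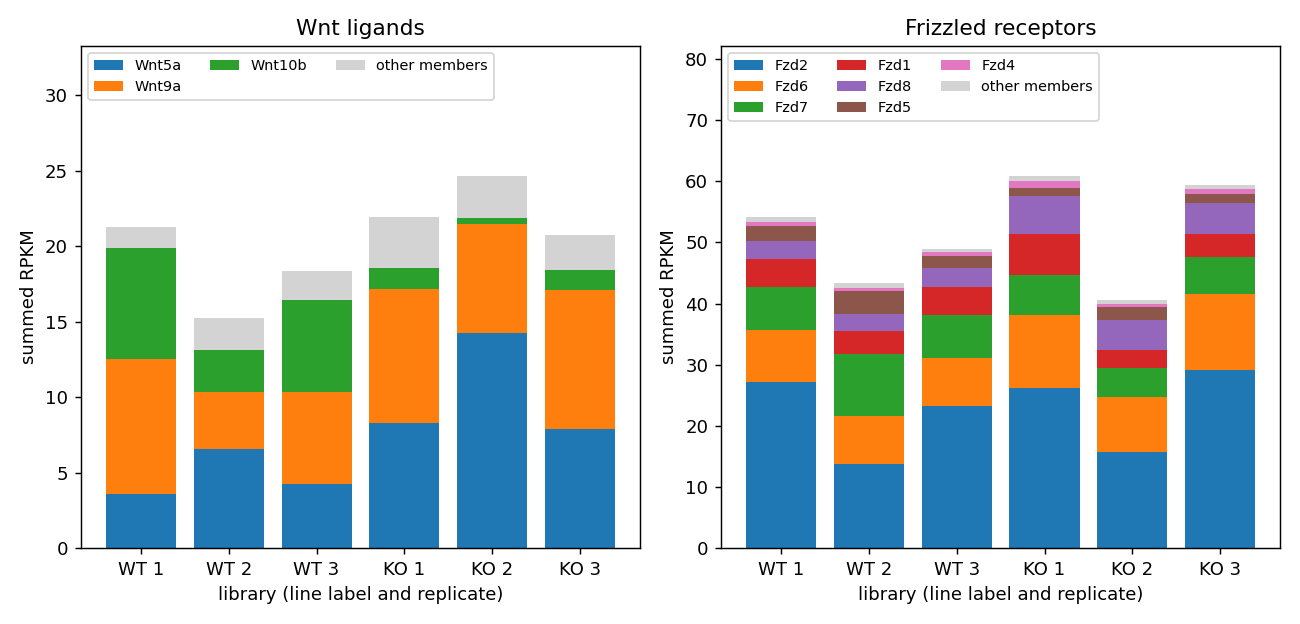
Summed RPKM of the 17 Wnt ligands (left) and the 10 Frizzled receptors (right) in each library, stacked by gene, with WT for MEF WT (control), KO for the MEF Nf2 KO-labelled libraries, and grey for members that stayed under 1 RPKM in every library. Wnt10b takes 18.4% to 34.6% of the ligand sum in MEF WT and at most 6.60% in the other line, while Fzd2 is the largest part of the receptor sum in all 6 libraries.

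The other 14 ligands were under the filter, and 11 of them stayed below 0.5 RPKM in every library. Wnt4, a ligand with roles in kidney and gonad development, was at 0.142, 0.201 and 0.171 RPKM in MEF WT, on 7.98 to 43.9 reads. In the MEF Nf2 KO-labelled libraries it was at 0.962, 0.952 and 0.424 RPKM, on 72.8 to 130 reads. The lines did not overlap, and the means of 0.171 ± 0.0297 and 0.779 ± 0.308 RPKM (SD, n = 3 each) stood in a ratio of 4.55 (two-sided exact permutation p = 0.1, which is the lowest that 3 against 3 allows). Wnt7a, chosen after its values were seen, had 0, 0.998 and 1.996 reads in MEF WT and 4.99, 19.0 and 34.9 reads in the MEF Nf2 KO-labelled libraries, or 0.0871 to 0.311 RPKM. Wnt3, likewise chosen after its values were seen, did not overlap either, but had at most 6.98 reads in any library. In a fit with no filter, Wnt4 had an unadjusted p of 0.00704 and Wnt7a of 0.0235, and 0 of the 43 members passed when adjusted over all 26231 genes, with or without the block (11 and 12 members at an unadjusted p under 0.05, limma), where 9 and 2 of all genes passed and 1937 and 3155 had an unadjusted p under 0.05. Wnt5b, the close relative of Wnt5a, was at 0.252, 0.437 and 0.437 RPKM in MEF WT and at 0.812, 0.332 and 0.593 RPKM in the MEF Nf2 KO-labelled libraries. Wnt11, another ligand used outside the beta-catenin branch, was at 0.108, 0.867 and 0.438 RPKM and at 0.668, 0.476 and 0.625 RPKM. The lines overlapped in Wnt5b and in Wnt11.

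The Frizzled receptors were led by Fzd2 in every library, with Fzd6, Fzd7, Fzd1 and Fzd8 at lower levels, in an order that differed between libraries. Their sum was 43.3 to 54.1 RPKM in MEF WT and 40.6 to 60.8 RPKM in the MEF Nf2 KO-labelled libraries. Of the 10 receptors 6 were tested, 0 passed without the block (3 at an unadjusted p under 0.05, limma, as were 1097 of all 11067 genes), and with it 2 passed, where Fzd8 rose and Fzd5 fell, against 7.53% of all genes.

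Fzd8, a receptor of the beta-catenin branch, was at 2.95, 2.86 and 3.11 RPKM in MEF WT and at 6.25, 4.78 and 5.15 RPKM in the MEF Nf2 KO-labelled libraries. The MEF WT libraries lay close together, and every library of the other line was above them. With means of 2.97 ± 0.127 and 5.39 ± 0.762 RPKM (SD, n = 3 each), the log2 difference was 0.68 (standard error 0.11, limma adjusted p = 0.0540, and 0.0134 once blocked by replicate number). The call with the block held when any replicate number was left out (adjusted p of at most 0.0391 from limma). Without the block, Fzd8 passed in 6 of 15 alternatives, among them quantile normalization, median centring and a pseudocount of 0.1 (adjusted p = 0.0321, 0.0344 and 0.0495 from limma). It did not pass without replicate 1, without replicate 3 or with no filter (adjusted p = 0.607, 0.638 and 0.163 from limma), and with no filter it did not pass with the block either (0.201).

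Fzd5, on chromosome 1 from 64730558 to 64737751, was at 2.37, 3.75 and 1.83 RPKM in MEF WT and at 1.33, 2.27 and 1.349 RPKM in the MEF Nf2 KO-labelled libraries. The lines overlapped, since replicate 2 was the highest library of each, and within replicate numbers the log2 differences were -0.53, -0.54 and -0.27. The fit gave -0.45 (standard error 0.23, adjusted p = 0.648 from limma) without the block and an adjusted p of 0.0415 with it. That call was lost when replicate 1, 2 or 3 was left out (adjusted p = 0.147, 0.169 and 0.0545) and with quantile normalization (0.0605).

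Fzd6 and Fzd7 were tested without a call in either fit, although neither overlapped between the lines. Fzd6, which has been linked to planar cell polarity, was at 8.54, 7.84 and 7.94 RPKM in MEF WT and at 11.8, 9.00 and 12.5 RPKM in the MEF Nf2 KO-labelled libraries, a log2 difference of 0.40 (adjusted p = 0.324, and 0.0632 with the block, limma). It passed without the block when replicate 2 was left out (adjusted p = 0.0330). Fzd7, a broadly used receptor, was at 7.11, 10.2 and 6.91 RPKM and at 6.53, 4.79 and 6.04 RPKM, a log2 difference of -0.41 (adjusted p = 0.501, and 0.243 with the block, limma), most of it in replicate number 2, where the difference was -0.95 against -0.11 and -0.17.

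For the most abundant receptor no line difference was detected. Fzd2 was at 27.1, 13.7 and 23.2 RPKM in MEF WT and at 26.3, 15.8 and 29.1 RPKM in the MEF Nf2 KO-labelled libraries, so replicate 2 stood lowest in each line. Its log2 difference of 0.15 (standard error 0.31) passed in neither fit (adjusted p = 0.981, and 0.357 with the block, limma) and turned to -0.12 without MEF WT replicate 2. Fzd1 was at 4.55, 3.74 and 4.72 RPKM and at 6.74, 2.92 and 3.75 RPKM, a log2 difference of -0.02 (standard error 0.25) whose sign changed with quantile normalization and with some libraries left out. Fzd3 and Fzd4 were under the filter. Fzd3, known from axon guidance, was at 0.365 to 0.453 RPKM and 0.475 to 0.505 RPKM, lines that did not overlap and whose means stood in a ratio of 1.22. Fzd4, the receptor of norrin as well as of Wnts, was at 0.494 to 0.688 RPKM and 0.432 to 1.13 RPKM. Fzd9 and Fzd10 stayed below 0.5 RPKM in every library, and Fzd10 had a single read in only 1 of them.

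**Figure D3:**
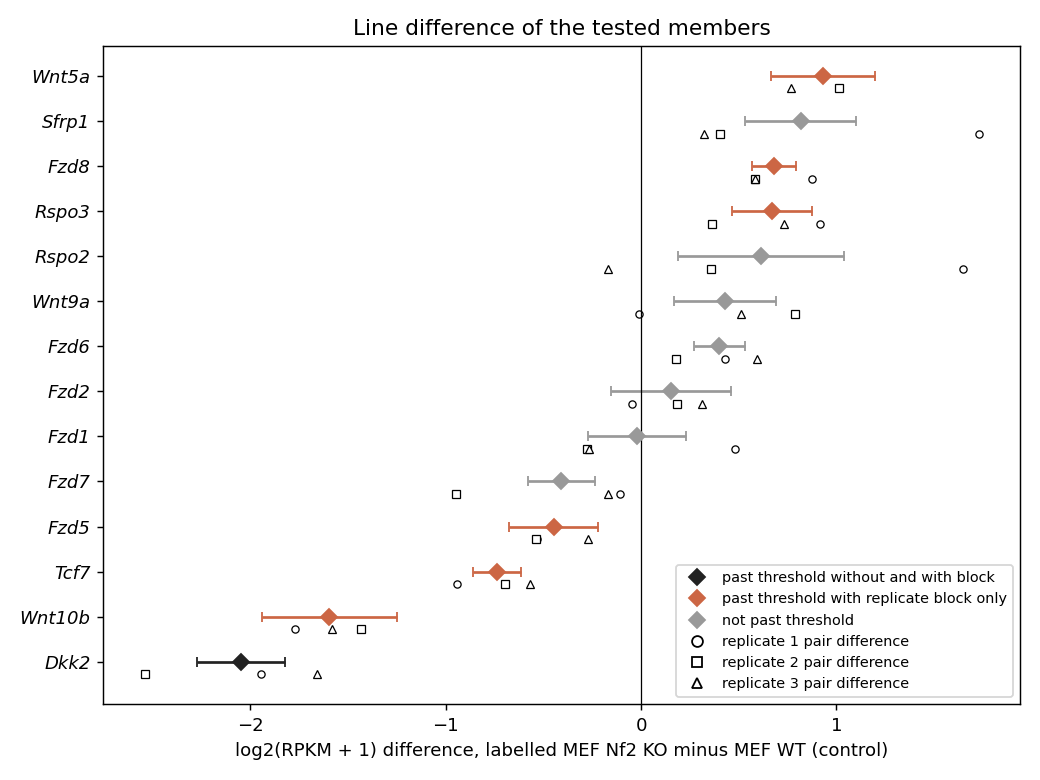
Line difference of the 14 tested members on the log2(RPKM + 1) scale, labelled MEF Nf2 KO minus MEF WT, with diamonds for the fitted difference, bars for its standard error without the block, and small open symbols for the differences within replicate numbers 1, 2 and 3. Black marks the gene past the threshold in both fits (Dkk2), orange the 6 past it with the replicate block only, and grey the 7 past it in neither.

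Sfrp1, Rspo2 and Rspo3 were at higher mean levels in the MEF Nf2 KO-labelled libraries, but a single library held much of that for Sfrp1 and Rspo2. Sfrp1, a secreted protein with a Frizzled-like domain that binds Wnts, was at 1.68, 2.36 and 2.76 RPKM in MEF WT and at 7.89, 3.45 and 3.69 RPKM in the MEF Nf2 KO-labelled libraries. The lines did not overlap, but the log2 difference of 0.82 (standard error 0.29, adjusted p = 0.375, and 0.169 with the block, limma) did not pass, and it was 1.73 in replicate number 1 against 0.40 and 0.32 in the others. Sfrp2, its relative, was under the filter at 1.06, 0.612 and 0.546 RPKM and at 1.97, 0.915 and 0.953 RPKM. Its lines overlapped, and within each replicate number the MEF Nf2 KO-labelled library was the higher (exact permutation test, two-sided, p = 0.3). Sfrp4, Sfrp5 and Wif1 stayed below 0.5 RPKM everywhere.

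Rspo3, an R-spondin that potentiates Wnt signals through Lgr receptors and surface ubiquitin ligases, lies on chromosome 10 from 29452416 to 29535867. It was at 0.817, 0.666 and 1.01 RPKM in MEF WT and at 2.43, 1.14 and 2.34 RPKM in the MEF Nf2 KO-labelled libraries, on 33.9 to 528 reads. The lines did not overlap, with means of 0.832 ± 0.175 and 1.97 ± 0.721 RPKM (SD, n = 3 each). The log2 difference was 0.67 (standard error 0.20, adjusted p = 0.276 from limma) and passed with the block (adjusted p = 0.0353), but not without replicate 1 or replicate 3 (0.118 and 0.115), nor with no filter (0.250). Rspo2, which acts in the same way, was at 1.41, 1.052 and 2.94 RPKM and at 6.55, 1.63 and 2.50 RPKM, with overlapping lines and a log2 difference of 0.61 (standard error 0.42) that passed in neither fit. Without replicate 1 of both lines it was 0.10. Rspo1 and Rspo4 had at most 1 read in any library.

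Of the nuclear and target genes, Tcf7 and Lef1 had lower values in the MEF Nf2 KO-labelled libraries, and Axin2 and Notum were low in each line. Tcf7 encodes a TCF/LEF factor and lies on chromosome 11 from 52252371 to 52283014. It was at 1.61, 1.23 and 1.13 RPKM in MEF WT and at 0.358, 0.375 and 0.433 RPKM in the MEF Nf2 KO-labelled libraries, on 17.0 to 82.8 reads in the latter. The lines did not overlap, and the means of 1.32 ± 0.257 and 0.389 ± 0.0390 RPKM (SD, n = 3 each) stood in a ratio of 3.40. The log2 difference was -0.74 (standard error 0.12, limma adjusted p = 0.0553, and 0.0185 once blocked by replicate number). With a pseudocount of 0.1 it was -1.53 and passed without the block as well (adjusted p = 0.0469), as it did with median centring (0.0419). The call with the block was lost when replicate 1 or 2 was left out (0.0663 and 0.0609). With no filter, which Tcf7 had cleared through MEF WT alone, it passed in neither fit (adjusted p = 0.144, and 0.205 with the block, limma).

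Lef1, another TCF/LEF factor and often itself a target of the pathway, was chosen after its values were seen. It had 4.99, 6.98 and 41.4 reads in MEF WT and 0.998, 0 and 7.98 reads in the MEF Nf2 KO-labelled libraries, so at most 0.0771 RPKM in any library. The lines did not overlap (two-sided exact permutation p = 0.1, which is the lowest that 3 against 3 allows), and in the fit with no filter the unadjusted p was 0.00660 (limma). Axin2, a feedback inhibitor and a common readout of beta-catenin activity, was at 0.0540, 0.0862 and 0.0830 RPKM and at 0.231, 0.0847 and 0.0696 RPKM, with overlapping lines. Notum was at 0.0617 to 0.297 RPKM over all 6 libraries, again with overlapping lines.

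Of the 29 members under the filter 5 had lines that did not overlap (Wnt3, Wnt4, Wnt7a and Fzd3 higher, Lef1 lower in the MEF Nf2 KO-labelled libraries), where 9.42% of all genes under the filter with any value above 0 did so. Of all genes under the filter reaching 0.5 RPKM, 17.2% did so. Among the 14 tested members 9 did not overlap, against 15.1% of all genes tested. These 9 include Tcf7, Dkk2, Rspo3 and Wnt10b, which met the filter only with the line in which they were high. The count is therefore a description.

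**Figure D4:**
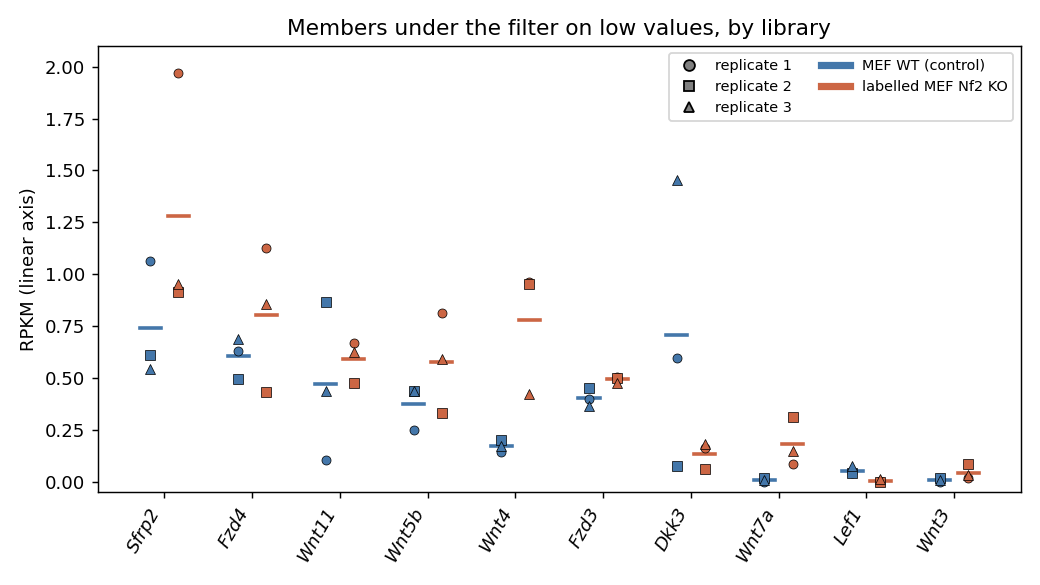
RPKM (linear axis) of the members under the filter that reached 0.5 RPKM in a library or whose lines did not overlap, with symbols, colours and bars as in the plot of the tested members. Wnt4, Wnt7a, Wnt3 and Fzd3 are higher and Lef1 lower in all 3 MEF Nf2 KO-labelled libraries, while Sfrp2, Fzd4, Wnt11, Wnt5b and Dkk3 overlap between the lines.

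The replicate numbers, which the labels mark by letters or a year, differed in some of the same genes. In a test between the 3 numbers with the line as a block (limma, moderated F test), 4 of the 14 members passed, Wnt5a, Wnt10b, Fzd2 and Fzd5 (adjusted p = 0.0139, 0.0109, 0.0129 and 0.0290), against 21.2% of all genes tested. In each line replicate 2 was the highest library for Wnt5a and Fzd5 and the lowest for Wnt10b and Fzd2. The line differences of Wnt5a and Wnt10b had the same sign within each replicate number.

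A list of 67 other genes of the pathway (receptor partners, ligand secretion, the beta-catenin destruction complex, nuclear partners and planar cell polarity genes) was set beside the members, of which 65 were in the table and 50 were tested. None of the 50 passed without the block (5 at an unadjusted p under 0.05, limma), and with it 4 passed, 1 higher and 3 lower, a share near the 7.53% of all genes. Their median log2 difference was -0.0007 and their median absolute difference 0.10. Beta-catenin itself, Ctnnb1, was at 137 ± 14.0 and 143 ± 17.7 RPKM (SD, n = 3 each), a log2 difference of 0.05 (standard error 0.13, adjusted p = 0.984 from limma) whose sign changed without MEF WT replicate 2 or without MEF Nf2 KO-labelled replicate 1.

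The 4 that passed with the block were Ror2, Tmed5, Apcdd1 and Kremen1. Ror2, a receptor tyrosine kinase that binds Wnt5a, was at 4.17, 4.997 and 4.53 RPKM in MEF WT and at 2.46, 3.01 and 2.86 RPKM in the MEF Nf2 KO-labelled libraries. Its lines did not overlap, with a log2 difference of -0.56 (standard error 0.11, limma adjusted p = 0.0839, and 0.0111 once blocked by replicate number), and the call with the block held without any replicate number (at most 0.0484). Apcdd1, a membrane inhibitor of Wnt signalling, was at 7.40, 6.37 and 7.22 RPKM and at 4.09, 4.87 and 2.87 RPKM, without overlap. Its log2 difference of -0.71 passed with the block only narrowly (adjusted p = 0.0498 from limma), and not without replicate 1 or replicate 3 (0.1996 and 0.0961). Kremen1, a receptor for Dickkopf proteins, went from 5.13 ± 0.737 to 3.93 ± 0.680 RPKM, and Tmed5, which helps to export Wnt ligands, from 17.1 ± 4.75 to 23.1 ± 5.46 RPKM (SD, n = 3 each). Their lines overlapped, their log2 differences were -0.32 and 0.42 (adjusted p = 0.0426 and 0.0188 with the block, limma), and neither call held when any replicate number was left out.

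Wls, Porcn and Lrp6 were expressed and passed in neither fit. Wls, the carrier that brings Wnt ligands to the surface, was at 53.4, 36.0 and 63.2 RPKM in MEF WT and at 84.2, 47.6 and 64.0 RPKM in the MEF Nf2 KO-labelled libraries (log2 difference 0.35, adjusted p = 0.843, and 0.175 with the block, limma). Porcn, the enzyme that attaches their lipid, was at 0.718 to 1.20 RPKM and 1.13 to 1.59 RPKM (log2 difference 0.32, adjusted p = 0.543, and 0.147 with the block, limma). Lrp6, the co-receptor, was at 5.50 to 6.01 RPKM and 6.34 to 9.53 RPKM, without overlap (log2 difference 0.35, adjusted p = 0.481, and 0.110 with the block, limma).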

How the data were processed

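RNA from 3 libraries of each line was sequenced and analysed by GENEWIZ. The authors deposited a single table (26231 genes, 6 libraries), and its values were read as RPKM. The submitters' processing notes name mm10, and the aligner and counting tool are not given in the sources used here. The unit was inferred: columns sum to 250088 to 263424, and with GENCODE vM21 exon lengths (26033 genes) 83.5% to 85.4% of values of up to 20 reads were within 0.05 of a whole read (4.34% to 8.25% at a median alternative depth). That step gave the depths, so reads quoted are inferred and may not be whole. Genes reaching 1 RPKM in 3 or more libraries entered limma 3.58.1 in R 4.3.3 as log2(RPKM + 1) (moderated, two-sided, trend and robust options on, Benjamini-Hochberg over all 11067 genes, threshold 0.05), without a covariate, as the study used an unpaired test. Deviations from the line means correlated between same-numbered libraries at 0.552, 0.819 and 0.516, but also between MEF WT replicate 3 and MEF Nf2 KO-labelled replicate 1 (0.493) and between MEF WT replicate 1 and MEF Nf2 KO-labelled replicate 3 (0.322), so the pairing mainly sets replicate 2 apart. Every same-numbered value was above 0.1, so blocked values are printed where they change the call of a gene tested in the report (the Lef1 to Dkk2 interval is given without tests). Libraries of a line differed by 2.64 to 5.62 times the sampling noise, so no pair met the criterion for a library deposited more than once, which does not show separate cultures.

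Named were all tested members, members under the filter reaching 0.5 RPKM, pathway genes past the threshold in either fit, Ctnnb1, Lrp6, Porcn, Wls and Nf2. Outside this rule, and after their values were seen, Lef1, Wnt7a, Wnt3, Axin2, Notum, Dkk1 and other low members were named to account for every group, as were the marker genes and Sgms2, Hadh and Papss1. Members and lists (6 lists of cell type markers, 67 pathway genes) were chosen with earlier results of these data known. The model was tested on simulated data. Alternatives were the replicate block, other filters, pseudocounts, normalizations and limma settings, voom on recovered reads, and each library or replicate number left out. Those that combine the block with another setting were added after seeing the data. Figures were drawn with matplotlib 3.10.9.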

Additional observations from a re-analysis of the deposited data

How the results depend on the processing

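Depth limits the low members: 29 of the 43 were under the filter, and 14 had no read in at least 1 library. With 3 libraries a line an exact test of a single gene cannot go below p = 0.1. Leaving out 1 library assumes that the others of both lines vary alike. The cause of the changes below was not tested.

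The line comparison called 117 of all genes, 1 of the members (Dkk2) and 0 of the other pathway genes (limma, where 5 had an unadjusted p under 0.05). Pairing the libraries by number (replicate block), it called 833 (331 higher, 502 lower), 7 and 4. Leaving out a library or a replicate number gave 0 to 484 genes, 0 to 7 members and 0 to 3 pathway genes: 0 genes without replicate 1 or replicate 3 (578 and 556 at an unadjusted p under 0.05, limma), 484 without replicate 2, 10 to 18 without MEF WT replicate 1 or 3 or MEF Nf2 KO-labelled replicate 1 or 3. Without replicate 1 or replicate 3 the adjusted p of Dkk2 was 0.446 and 0.253 (limma).

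With no filter 9 genes and 0 members passed (1937 and 11 at an unadjusted p under 0.05, limma), and with a filter of 5 RPKM 63 genes. Members numbered 3 with voom on recovered reads (146 genes), a pseudocount of 0.1 (121 genes), median centring (131 genes), or limma without trend and robust settings (131 genes). They numbered 2 with quantile normalization (125 genes).

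With the block and a second change, added after seeing the data, the counts of genes, members and pathway genes were 320 to 454 (320, 454 and 419 without replicate 1, 2 and 3), 5 and 1 to 2 without a replicate number, 827, 7 and 3 with a pseudocount of 0.1, 785, 6 and 2 with quantile normalization, 812, 7 and 4 with median centring, and 2, 0 and 0 with no filter (3155 genes and 12 members at an unadjusted p under 0.05, limma).

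Between replicate numbers 2347 genes and 4 members passed, but 0 and 0 with no filter (5077 and 5 at an unadjusted p under 0.05, limma). With a filter of 5 RPKM 1805 of 7117 genes and 2 of 6 members passed.

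Of 541 values of 23 single genes under the alternatives, 446 kept their direction and call, 71 gained a call, 7 lost it and 17, all of genes without a call, changed sign. The latter were Fzd1 (0.013 with quantile normalization, with or without the block, -0.30 to 0.19 with libraries left out, 0.11 and 0.10 with the block without replicate 2 and 3), Fzd2 (-0.12 to 0.41 with libraries left out), Ctnnb1 (-0.033 to 0.15) and Nf2 (-0.030 to 0.091, and -0.0015 with the block without replicate 1).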

Other observations

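Dkk2 and Lef1, whose values lay lower throughout the MEF Nf2 KO-labelled line, lie 861 kb apart on chromosome 3 of GRCm38, in the same orientation. The interval was chosen after their values were seen, so it is given as values with no test. From the start of Lef1 to the end of Dkk2 the table has 9 genes, and besides Dkk2 those above the filter were Sgms2, Hadh and Papss1. Sgms2, a sphingomyelin synthase gene, was at 4.13, 7.93 and 4.59 RPKM in MEF WT and at 1.88, 3.51 and 2.31 RPKM in the MEF Nf2 KO-labelled libraries, without overlap, a log2 difference of -0.86. The others, Hadh and Papss1, had log2 differences of -0.03 and -0.06 and lines that overlapped.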
